A study of Trichoderma reesei with 8 samples.

Results

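The light response of the *T. reesei* transcriptome was compared between the wildtype QM6a and ∆*ypr2*, a strain from which the transcription factor gene *ypr2* was deleted, by taking all 8 libraries of the series as a design of 2 strains by 2 light conditions. For each gene the light response of a strain is its log2 fold change in light against darkness. The interaction is the light response of ∆*ypr2* minus that of QM6a, which equals the effect of the deletion in light minus its effect in darkness. Of 9143 genes with deposited values 8469 were tested, and for 1212 of them the interaction was called, at an adjusted p under 0.01 and a size of at least 2-fold (14.3% of the tested genes). These genes were sorted by their light responses. In a weakened response the light response of QM6a was reduced or lost in ∆*ypr2*. A gained response was called in ∆*ypr2* alone, a reversed one in both strains with opposite signs, and a strengthened one in both with the same sign and a larger size in ∆*ypr2*.

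The cultures were grown in shaken liquid medium with 1% cellulose and a smaller amount of peptone for 72 h at 28 °C. They were kept either in darkness throughout or in light throughout (1600 lux), with n = 2 cultures in each of the 4 groups: QM6a in light, QM6a in darkness, ∆*ypr2* in light and ∆*ypr2* in darkness. All cultures were started from conidia of plates kept in darkness, and dark cultures were harvested under red safety light. RNA from the mycelium was sequenced with single reads. The groups compare steady conditions at a single time, and ∆*ypr2* was represented by a single deletion strain with no restored gene among these libraries, so an effect of the deletion and another difference between the strains cannot be told apart. The study reported less biomass of ∆*ypr2* than of the wildtype in darkness, and no significant difference in light. The part of this difference in growth in the results was not tested.

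*T. reesei* degrades cellulose with secreted enzymes, and light changes both its enzyme production and its development. In filamentous fungi blue light is sensed by a pair of GATA-type photoreceptor proteins, BLR1 and BLR2 in *Trichoderma*, and the small photoreceptor ENV1 adjusts their output. Light also induces conidiation, the formation of asexual spores. *ypr2* lies in the SOR cluster, a group of neighbouring genes for the synthesis of the yellow sorbicillinoid pigments, and encodes a transcription factor of this cluster.

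The expected counts summed to between 16.9 and 22.9 Mio per library, and 1 count stood for 0.0438 to 0.0579 CPM (scaled counts per Mio). Across genes, the 2 cultures correlated least in ∆*ypr2* in darkness (r = 0.9933) and most in QM6a in light (r = 0.9965), and the biological coefficient of variation was 0.0979 in the former group against 0.0394 to 0.0578 in the other 3. The 6 markers of growth on cellulose summed to between 7748 and 13560 CPM in darkness and between 2.423 and 29.13 CPM in light. The 7 conidiation markers summed to 1167 and 1199 CPM in QM6a in darkness, 1770 and 1721 in ∆*ypr2* in darkness, 1846 and 1912 in QM6a in light and 1576 and 1616 in ∆*ypr2* in light. Of these *con-13* was at 0 in a culture of each strain in light. Most of each sum came from *ccg-1* and *medA*, which moved in opposite directions. In darkness *ccg-1* had 65.3 and 54.8 CPM in QM6a and 1020 and 992 CPM in ∆*ypr2*, while *medA* was lower in ∆*ypr2*. The sums therefore do not show how far single markers moved. The part of conidiation in the results was not tested. The p-values rest on the spread between these cultures, taken in common over the 4 groups although ∆*ypr2* in darkness varied most. In bulk RNA fewer cells of a type and less RNA per cell cannot be told apart.

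The deleted gene *ypr2* had 30.9 and 31.6 CPM in QM6a in light and 165 and 153 CPM in darkness. In ∆*ypr2* it had 0 and 0 CPM in light and 0.543 and 0.263 CPM in darkness. Its level in light was therefore at least 416-fold lower in ∆*ypr2* than in QM6a. In QM6a *ypr2* was itself downregulated in light (log2 fold change -2.35 ± 0.08, ± standard error, edgeR adjusted p = 3.9e-08), so that the strains differed by more transcript of this gene in darkness than in light.

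Light changed 2019 genes in QM6a and 1446 in ∆*ypr2*. In QM6a 796 genes were higher in light (9.4% of those tested) and 1223 lower (14.4%), and in ∆*ypr2* these were 323 (3.81%) and 1123 (13.3%). Both light responses share no library, but the interaction contains the libraries of both and its calls are therefore not independent of either. Of the 796 genes that QM6a raised in light, 336 (42.2%) had a weakened response in ∆*ypr2*, 39 a reversed and 11 a strengthened one, and for 410 (51.5%) the interaction was not called. Of the 1223 genes that QM6a lowered in light, 405 (33.1%) were weakened, 13 reversed and 36 strengthened, and for 769 (62.9%) no interaction was called.

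**Figure D1:**
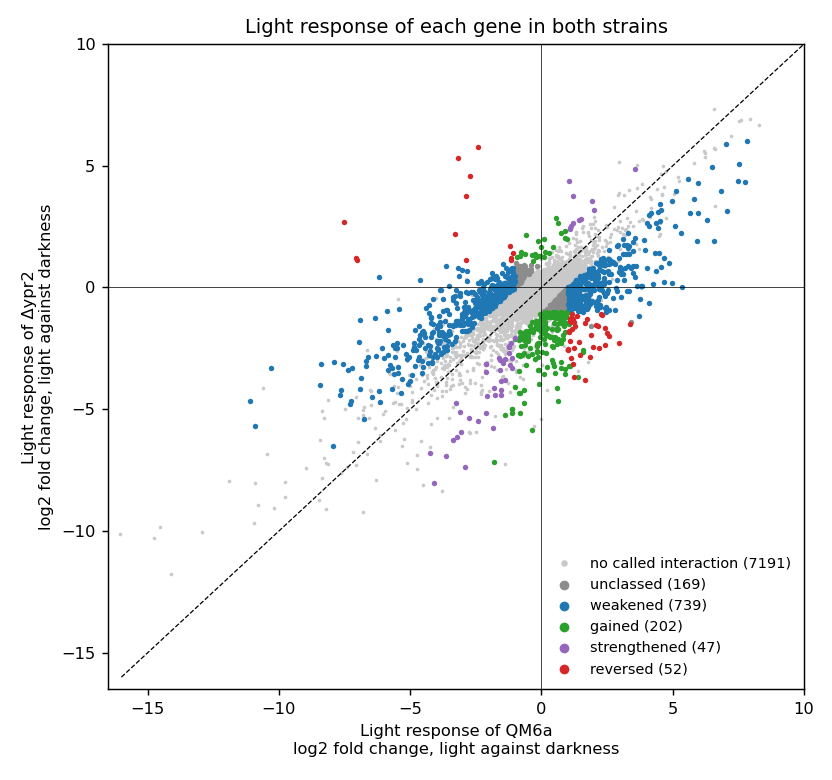
The plot shows the light response of QM6a (horizontal axis, log2 fold change of light against darkness) and of ∆*ypr2* (vertical axis, same unit) for the 8400 tested genes without a group at 0 counts, 1 point per gene, coloured by class, with a dashed line where both responses are equal. The weakened genes (blue) lie between this line and the horizontal axis or near that axis, and the 52 reversed genes (red) lie at the upper left and the lower right.

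The interaction was higher (more positive) for 503 genes, 5.94% of those tested, and lower for 709 (8.37%). Weakened responses made up 741 of the 1212 genes (61.1%), of which 514 were lost and 227 reduced. A further 203 were gained (16.7%), 52 reversed (4.29%) and 47 strengthened (3.88%). The remaining 169 genes (13.9%) were left unclassed: in all of them the light responses had opposite signs and neither passed a call of its own. Most gained responses were downward: 178 of the 1123 genes lower in light in ∆*ypr2* were gained (15.9%), but 25 of the 323 that were higher (7.74%).

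**Figure D2:**
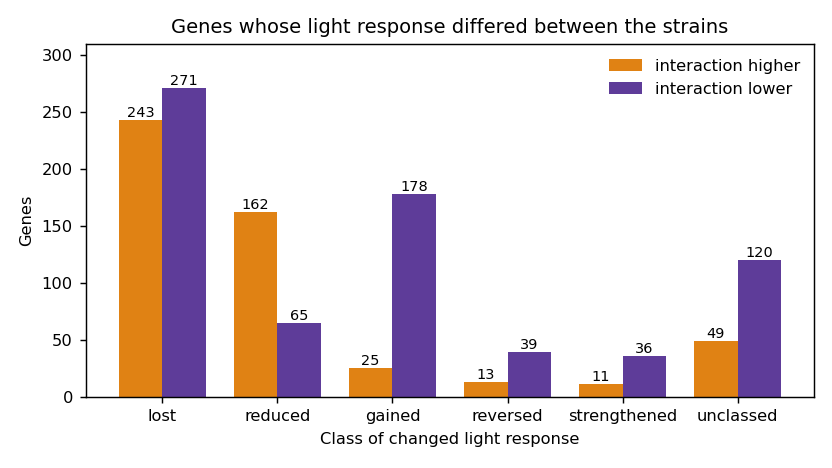
Bars give the number of genes in each class of changed light response, separately for interactions higher (orange) and lower (purple) than 0. Lost responses were the largest class in both directions (243 and 271 genes), while gained, reversed and strengthened responses were mostly on the lower side (178, 39 and 36 genes).

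Whether a gene was called depended on both limits. The smallest interaction among called genes was 1.002 in size and the largest just under the fold limit was 0.999 (log2). The largest adjusted p among called genes was 0.00984 and the smallest just over the limit 0.0101. Taken by itself, the limit on p was passed by 3161 genes and the limit on the fold by 1658. Both counts include the called genes.

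The strains differed mainly in darkness. Between the strains 1332 genes were called in darkness (15.7%) and 44 in light (0.52%). The count in light was 20 and 11 without QM6a light replicate 1 and 2, and 14 without ∆*ypr2* light replicate 2. Of the 1212 genes with an interaction 994 (82%) were called for the deletion in darkness and 34 (2.81%) in light. The size of the deletion effect was larger in darkness for 1153 of these genes (95.1%), against 6924 of all 8469 tested genes (81.8%). The interaction is the difference of both deletion effects, so genes chosen by it tend to have a large effect in a condition. The shares among these genes, and the counts of deletion effects by class, are therefore not independent evidence. In the class medians of the lost genes QM6a in darkness stood apart from the other 3 groups, and in those of the gained genes it was ∆*ypr2* in darkness. For lost genes that QM6a raised in light, the dark level of ∆*ypr2* had moved by a median of 92.8% of the log2 distance from the dark to the light level of QM6a. For those that QM6a lowered in light it was 73.1%. The reduced genes kept a median of 52.7% (raised in light in QM6a) and 51.5% (lowered in light) of the log2 light response of QM6a. The classes were defined by the light responses of both strains, so these class medians follow in part from the sorting. They are not independent evidence. The deletion effect in light was called for 15 of the 162 reduced genes that QM6a lowered in light and for 8 of the 13 genes reversed upward, and for at most 3 genes in each other class and direction.

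**Figure D3:**
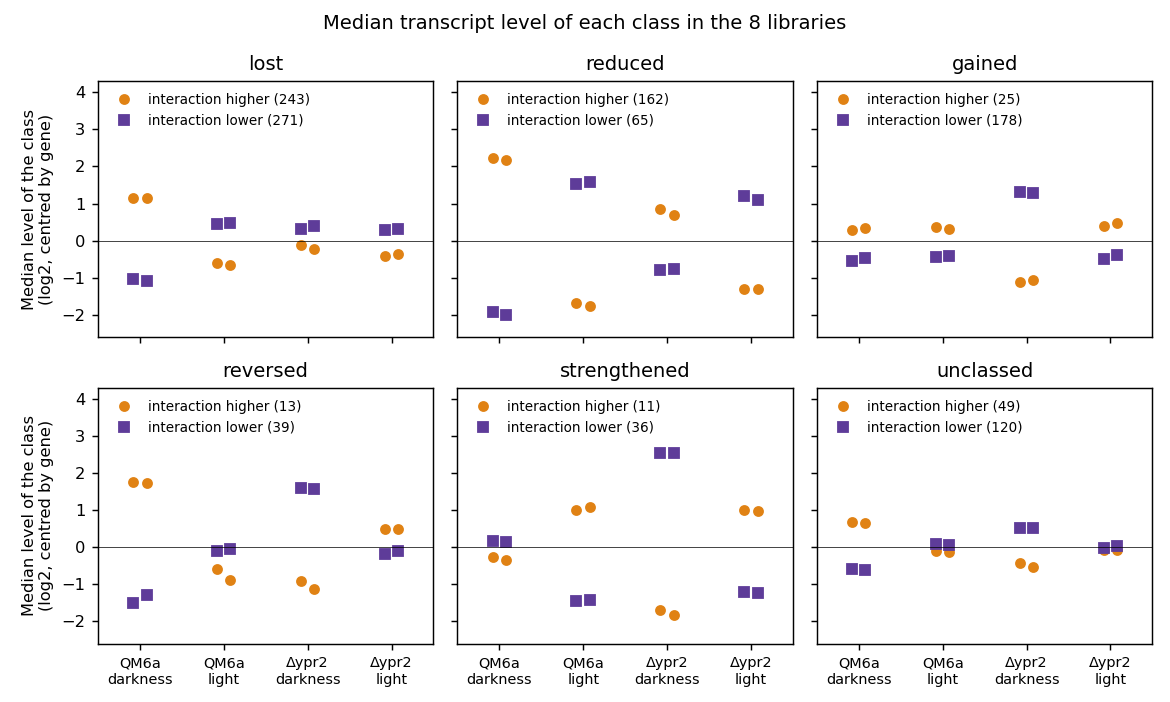
Each panel shows a class, and each point the median over its genes of log2(CPM + 0.5) in 1 library, after the mean of each gene over the 8 libraries was taken off (log2 units; orange for a higher and purple for a lower interaction, with the number of genes in brackets). For the gained genes the 2 libraries of ∆*ypr2* in darkness lie at 1.316 and 1.297 (lower interaction) or at -1.102 and -1.072 (higher interaction), away from the other 6.

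Among the genes that QM6a raised in light, 271 lost this response in ∆*ypr2* and 65 kept a part of it. The glucose repressible gene *ccg-1* (TR_73516), abundant in conidiating cultures, had 1500 and 1560 CPM in light and 65.3 and 54.8 CPM in darkness in QM6a. In ∆*ypr2* it had 1200 and 1170 CPM in light and 1020 and 992 CPM in darkness. The dark cultures of QM6a were thus low, and the other 6 libraries were high. The interaction was -4.44 ± 0.12 (edgeR adjusted p = 9.2e-08). The gene of an aspartyl protease (TR_53961), a class of secreted or vacuolar protein degrading enzymes, went from 0.978 and 1.51 CPM in darkness to 51.3 and 48.9 in light in QM6a, and stood at 26 and 27.6 CPM in darkness and 28.5 and 26.4 in light in ∆*ypr2*. All 4 libraries of the deletion strain lay between both groups of the wildtype (interaction -5.3 ± 0.17, adjusted p = 1.4e-07). TR_121405, for a 4-aminobutyrate aminotransferase, which degrades the amino acid GABA, had a log2 light response of 4.38 ± 0.16 in QM6a and 0.66 ± 0.12 in ∆*ypr2* (interaction -3.71 ± 0.21, adjusted p = 1.7e-06). TR_61553, for a phosphoketolase that splits sugar phosphates, had 7.98 and 8.25 CPM in light and 1.41 and 1.27 in darkness in QM6a, and 6.91 and 6.25 CPM in light and 11.5 and 13.5 in darkness in ∆*ypr2*. Without *ypr2* its dark cultures were the higher ones, but by less than 2-fold, so it counted as lost.

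All 4 listed genes of trehalose metabolism, the disaccharide that fungi store and use against stress, were higher in light in QM6a and lost this response (median light response 2.39 in QM6a and 0.2 in ∆*ypr2*, beside medians of 0 and 0 over all tested genes). Of all 8469 tested genes 796 (9.4%) were higher in light in QM6a, and 514 were lost in either direction. The trehalase gene TR_123226, whose product cleaves trehalose, had 199 and 203 CPM in light and 24.8 and 25.7 in darkness in QM6a, but 202 and 184 in light and 94.8 and 119 in darkness in ∆*ypr2* (interaction -2.14 ± 0.14, adjusted p = 3.9e-06). The call of TR_73134, a trehalose-6-phosphate synthase gene at no more than 2.19 CPM, was lost in 5 of the 8 fits leaving out a culture. In the list of alcohol and two-carbon metabolism 10 of 12 genes had a lower interaction (8.37% of all tested genes) and no gene a higher one (median -1.94, beside -0.03 over all tested genes). Both genes of the glyoxylate cycle in this list, which makes sugar precursors from acetate, lost their response: *acu3* (isocitrate lyase) had 564 and 560 CPM in light and 151 and 163 in darkness in QM6a, and between 608 and 685 CPM in all 4 libraries of ∆*ypr2*. For *acu9* (malate synthase) the interaction was -1.44 ± 0.12 (adjusted p = 1.3e-05). TR_124115, for phosphoenolpyruvate carboxykinase, the entry step of gluconeogenesis, kept a reduced response, with 1250 and 1310 CPM in light and 62.3 and 65.8 in darkness in QM6a and 1430 and 1470 in light and 450 and 640 in darkness in ∆*ypr2*. Members of these lists are genes that the study had called on the same samples, so neither their number nor their direction is independent evidence.

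TR_50616, for a coenzyme A transferase, had the largest reduced response on this side. It had 521 and 545 CPM in light and 5.59 and 5.5 in darkness in QM6a, against 273 and 191 in light and 71.2 and 51.2 in darkness in ∆*ypr2* (interaction -4.66 ± 0.29, adjusted p = 2.8e-06). Here both conditions moved towards each other. The same was seen for TR_111442, of the Epl1/Sm1 type of small secreted proteins that elicit plant defence, with 412 and 445 CPM in light and 3.2 and 1.45 in darkness in QM6a and 277 and 207 in light and 8.26 and 6.44 in darkness in ∆*ypr2*. TR_69811, for a glutamyltransferase, had a light response of 7.08 ± 0.27 in QM6a and 3.16 ± 0.2 in ∆*ypr2*. TR_34221, for a myb transcriptional regulator, had 6.29 ± 0.28 and 2.76 ± 0.19. The velvet gene *vel1*, a regulator of development and secondary metabolism in light and darkness, had 634 and 697 CPM in light and 188 and 200 in darkness in QM6a, and 667 and 635 in light and 387 and 481 in darkness in ∆*ypr2* (interaction -1.19 ± 0.14, adjusted p = 0.00012). Its response was lost by the 2-fold rule, at a remaining log2 light response of 0.58 ± 0.1. The pheromone receptor gene *hpr1* was reduced, from a light response of 2.53 ± 0.14 in QM6a to 1.18 ± 0.12 in ∆*ypr2*.

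Among the genes that QM6a lowered in light, 243 lost the response in ∆*ypr2* and 162 kept a part of it. The myb regulator gene TR_4124 had 27.2 and 30 CPM in darkness and 2.3 and 2.25 in light in QM6a, and between 1.74 and 3.88 CPM in all 4 libraries of ∆*ypr2* (interaction 4.53 ± 0.26, adjusted p = 1.8e-06). Again a single group stood apart, QM6a in darkness, but this time as the high one. TR_22386, a further gene of the Epl1/Sm1 type, had 129 and 82.5 CPM in darkness and 11.5 and 10.7 in light in QM6a, against 11.8 and 6.83 in darkness and 8.25 and 8.62 in light in ∆*ypr2*. TR_122127, for a small secreted cysteine-rich protein, had 1180 and 1270 CPM in darkness and 128 and 110 in light in QM6a, and between 173 and 293 CPM in ∆*ypr2*. TR_120008, for a GMC oxidoreductase, a family of flavoenzymes acting on alcohols and sugars, had 482 and 476 CPM in darkness and 91.6 and 93.6 in light in QM6a and between 85.5 and 102 CPM in ∆*ypr2* (interaction 2.57 ± 0.08, adjusted p = 9.2e-08). Among lost genes of this direction that reached 10 CPM, the largest interaction was that of TR_123084 (5.08 ± 0.8), an unnamed gene that had 169 and 116 CPM in QM6a in darkness and between 1.46 and 5.76 CPM in every other library. A gene annotated as ribosomal protein S2 (TR_67504) was also lost (interaction 3.72 ± 0.21). Of 42 cytosolic ribosomal protein genes, identified by symbol, 0 were called by edgeR or by DESeq2 (8 at an unadjusted p under 0.05). Over all tested genes edgeR called 14.3%.

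The hydrophobin gene *hfb2*, whose small surface-active protein coats hyphae and spores, had 30800 and 33100 CPM in darkness and 12300 and 11000 in light in QM6a. In ∆*ypr2* it had 7530 and 7960 CPM in darkness and 15200 and 15100 in light. Light lowered it in the wildtype (log2 fold change -1.46 ± 0.08), whereas in the deletion strain the light level was higher by 0.97 ± 0.08, just under the fold limit, and *hfb2* counted as lost (interaction 2.42 ± 0.12, adjusted p = 8.9e-07). *hfb5* and the hydrophobin-like gene TR_120189 were reduced, with light responses of -3.91 ± 0.14 and -3.97 ± 0.09 in QM6a and -2.3 ± 0.14 and -2.48 ± 0.09 in ∆*ypr2*. Of 6 tested hydrophobin and cerato-platanin genes, a list taken from the study, 4 had a higher and 1 a lower interaction, beside 5.94% and 8.37% of all tested genes. Of 11 tested genes of secondary metabolism, a list taken from the study, 4 were lost and 7 had no called interaction. The share with a called interaction was 36.4%, beside 14.3% of all tested genes. The polyketide synthase gene *pks5g* had 208 and 213 CPM in darkness and 68.6 and 61.5 in light in QM6a, and between 50.1 and 76 CPM in ∆*ypr2*. The peptaibol synthetase gene *tex1* had 114 and 127 CPM in QM6a in darkness and between 25.1 and 55.4 in the other 6 libraries. The terpenoid synthase gene *tps2* had a light response of -2.41 ± 0.1 in QM6a and -0.7 ± 0.09 in ∆*ypr2*. The fourth lost gene was *vel1*, with the opposite direction. The pigment polyketide synthase gene *pks4* had light responses of -4.38 ± 0.11 and -3.6 ± 0.11 with no called interaction (0.78 ± 0.16).

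The largest reduced responses came from genes with little transcript in light. TR_61227, for a protein of the cobalamin synthesis type, had 942 and 588 CPM in darkness and 6.89 and 5.89 in light in QM6a, and 14.7 and 19.7 in darkness and 5.91 and 7.66 in light in ∆*ypr2* (interaction 5.56 ± 0.41, adjusted p = 6.9e-06). The light cultures of both strains overlapped, and the dark cultures did not. TR_111915, for a small secreted cysteine-rich protein, had 991 and 1000 CPM in darkness and 5.03 and 3.17 in light in QM6a, and 78.5 and 69.4 in darkness and 8.08 and 9.39 in light in ∆*ypr2* (4.84 ± 0.21, adjusted p = 5e-07). TR_105449, annotated as a cyclin C-dependent kinase of the CDK8 type, fell in QM6a from 135 and 110 CPM in darkness to 0.0547 and 0.0577 in light, 1 count in each light library, and in ∆*ypr2* from 23.3 and 18.8 to 0.334 and 0.456 CPM. For genes at this level in light the size of the interaction rests on few counts, and this call was lost without ∆*ypr2* light replicate 2. TR_67597 and TR_108663, which have no name, reached 306 and 525 CPM in a dark culture of QM6a and stayed at or under 0.501 CPM in all light libraries, and each call was lost in 6 of the 8 fits leaving out a culture. TR_104180, with ankyrin repeats, was at 0 in both light cultures of QM6a, at least 137-fold under its dark level, and at 0.39 and 0.501 CPM in light in ∆*ypr2*.

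Of 9 listed iron genes outside the siderophore cluster 3 lost their response, 1 was reduced, 2 were gained, 1 was strengthened and 2 were not called. The iron permease gene *ftr1b* and the multicopper oxidase gene *fet3b*, which together take up reduced iron at the plasma membrane, had dark levels of 161 and 153 CPM and of 63.4 and 64.9 CPM in QM6a, against light levels of 24.4 and 24.8 and of 18 and 18.3 CPM. In ∆*ypr2* *ftr1b* lay between 45.9 and 60.2 CPM and *fet3b* between 31.1 and 35.7 CPM in all 4 libraries (interactions 2.5 ± 0.13 and 1.88 ± 0.11, adjusted p = 1.3e-06 and 1.8e-06). Their paralogues behaved otherwise. *ftr1a* was raised in light in both strains, with 62.4 and 56.4 CPM in light and 2.34 and 2.43 in darkness in QM6a and 70.2 and 67.1 against 2.72 and 1.71 in ∆*ypr2* (interaction 0.34 ± 0.25, adjusted p = 0.26). *fet3a* was also raised in both, with a called interaction of 1.28 ± 0.3 that was lost in 7 of the 8 fits leaving out a culture. Over this list, taken from the study, 5 genes had a higher and 2 a lower interaction, beside 5.94% and 8.37% of all tested genes.

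**Figure D4:**
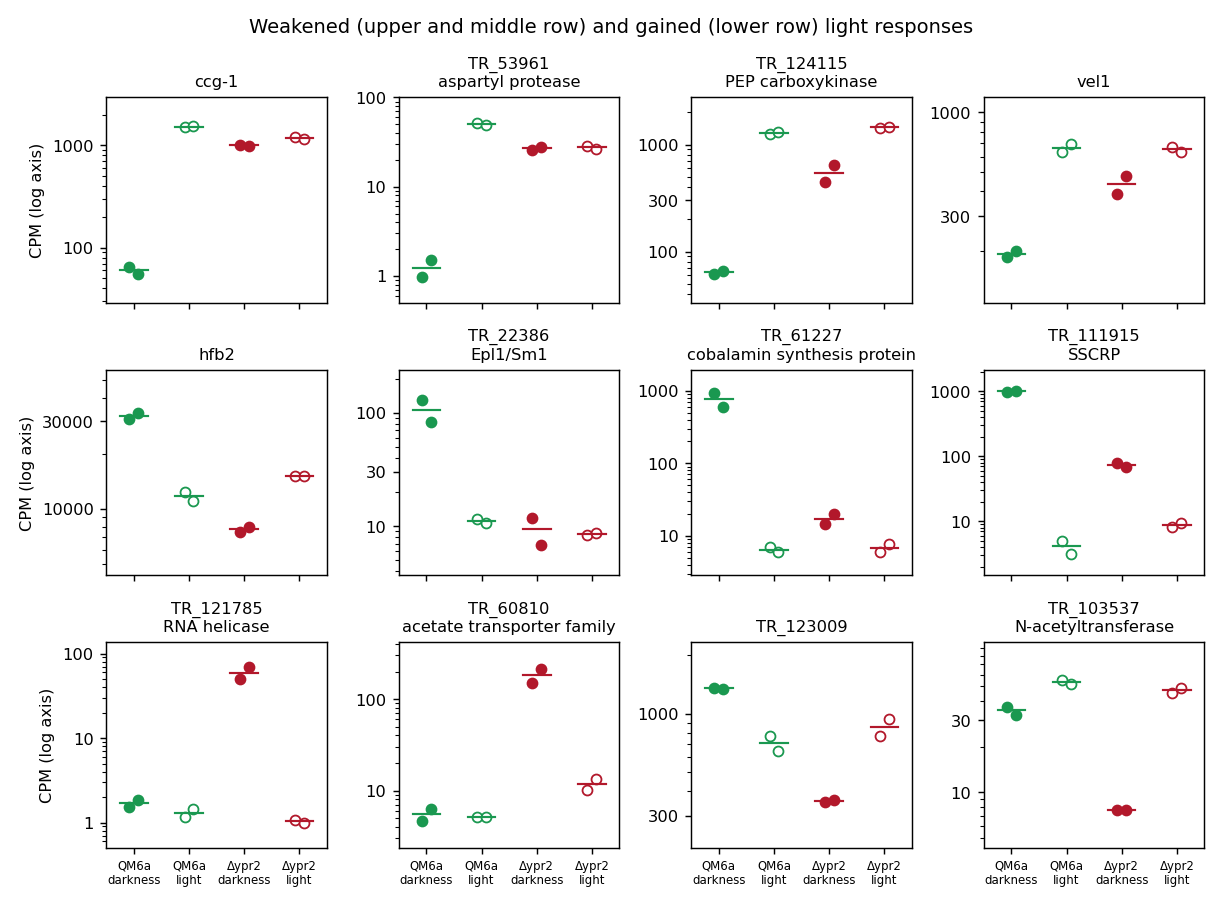
Transcript levels (CPM, log axis) of 8 weakened genes (upper and middle row) and 4 gained genes (lower row) in the 8 libraries; filled points are darkness, open points light, green QM6a and red ∆*ypr2*, and lines mark the mean of both cultures. For *ccg-1* the dark cultures of QM6a (65.3 and 54.8 CPM) lie below all others, and for TR_121785 the dark cultures of ∆*ypr2* (50.1 and 68.7 CPM) lie above all others.

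Of the 203 gained responses 178 were downward: the genes showed no called light response in QM6a, and ∆*ypr2* carried more transcript in darkness than in light. TR_121785, for an ATP-dependent RNA helicase, had 50.1 and 68.7 CPM in ∆*ypr2* in darkness and between 1 and 1.85 CPM in the other 6 libraries (interaction -5.47 ± 0.48, edgeR adjusted p = 2.1e-05). A zinc-binding oxidoreductase gene (TR_59322) had 22.8 and 29 CPM there and between 0.652 and 1.34 elsewhere. TR_3447, for an NADP-dependent alcohol dehydrogenase, had 25.5 and 33.8 CPM and between 0.273 and 1 elsewhere, and its call was lost without QM6a light replicate 2. In each of these a single group was raised. TR_123718, for an amino acid transporter, had 84 and 85.7 CPM in ∆*ypr2* in darkness and between 5.38 and 15.2 CPM elsewhere (-4.26 ± 0.28, adjusted p = 3.6e-06). The call of a further oxidoreductase gene, TR_21876, rested on cultures that differed from each other (58.4 and 18 CPM in ∆*ypr2* in darkness) and was lost in 5 of the 8 fits leaving out a culture.

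Of the 12 genes of alcohol and two-carbon metabolism 5 were gained, beside 203 of all 8469 tested genes. The list holds genes that the study had called on the same samples, so this count is not independent evidence. TR_60810, a GPR1/FUN34/yaaH gene, a family that includes fungal acetate transporters, had 151 and 215 CPM in ∆*ypr2* in darkness, 10.1 and 13.3 in light, and between 4.62 and 6.37 CPM in QM6a (interaction -3.86 ± 0.37, adjusted p = 3.6e-05). The pyruvate decarboxylase gene *pdc1*, for the first step from pyruvate to ethanol, had 2650 and 1270 CPM in ∆*ypr2* in darkness and between 288 and 486 CPM elsewhere, and its call (-2.12 ± 0.5) was lost in 5 of the 8 fits leaving out a culture. The formate dehydrogenase gene *fdh1* had 645 and 716 CPM in ∆*ypr2* in darkness, 323 and 330 in light, 260 and 259 in QM6a in light and 127 and 141 in darkness, so the order of light and darkness differed between the strains, with the wildtype response of 0.96 ± 0.07 just under the fold limit. TR_57940, an alternative oxidase gene of mitochondrial respiration, was at 118 and 123 CPM in ∆*ypr2* in darkness and between 43.8 and 52 CPM in all other libraries.

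Of 7 listed surface protein genes 2 had a higher and 5 a lower interaction, beside 5.94% and 8.37% of all tested genes, and 2 were gained, both downward. Of 5 tested chitinase genes 3 had a lower interaction, and 1 was gained. Both lists were taken from the study and are no independent evidence. The cell wall protein gene TR_123659 had 276 and 329 CPM in ∆*ypr2* in darkness and between 10.7 and 19.6 CPM elsewhere (interaction -4.06 ± 0.17, adjusted p = 4.9e-07). The mannoprotein gene TR_123475 had 2510 and 2780 CPM there and between 344 and 846 CPM elsewhere. The chitinase gene *ech42*, for an endochitinase that degrades fungal cell walls, had 137 and 143 CPM there and between 19.5 and 37.9 CPM elsewhere (-1.86 ± 0.09, adjusted p = 9.2e-07). The G-protein coupled receptor gene *gpr1* had 47.8 and 54.8 CPM and between 8.83 and 10.9 elsewhere, and the GATA factor gene homologous to *sreA*, in *Aspergillus* a repressor of iron uptake, had 95.6 and 120 CPM and between 29.2 and 50.1 elsewhere. Over all 12 receptor genes of that list 1 had a higher and 7 a lower interaction, beside 5.94% and 8.37% of all tested genes. With glmTreat, which tests against a change of 2-fold, 2 of them were called, beside 553 of all 8469 tested genes.

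Of the 25 upward gained genes 22 were downregulated in ∆*ypr2* in darkness. TR_123009, without a name, had 352 and 361 CPM there and 773 and 939 in light, against 1360 and 1340 in darkness and 772 and 644 in light in QM6a (interaction 2.2 ± 0.15, adjusted p = 4.5e-06). TR_103537, for a GCN5-type N-acetyltransferase, had 7.61 and 7.62 CPM in ∆*ypr2* in darkness, 45.3 and 49.1 in light, and 36.8 and 32.6 in darkness and 55.4 and 51.9 in light in QM6a. TR_55351, for a peroxiredoxin, which removes peroxides, had a light response of 0.44 ± 0.05 in QM6a and 1.67 ± 0.06 in ∆*ypr2*. An amidase gene (TR_68615) had 0.96 ± 0.08 and 2 ± 0.09, and its interaction of 1.04 ± 0.12 was no longer called without QM6a light replicate 1 or ∆*ypr2* dark replicate 2.

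Reversed responses were called for 52 genes, in 13 from lower in light in QM6a to higher in light in ∆*ypr2* and in 39 the other way. All 13 had their highest mean in QM6a in darkness and were downregulated there in ∆*ypr2*. All 39 had their highest mean in ∆*ypr2* in darkness. Among the 13 were the 6 neighbouring genes of the siderophore cluster, with a median interaction of 7.72. Siderophores are small iron chelators that fungi secrete and take up again. *mirB*, the homologue of a siderophore transporter gene, had 28.7 and 34.8 CPM in darkness and 0.109 and 0.231 in light in QM6a, and 0.435 and 0.263 in darkness and 1.95 and 2.42 in light in ∆*ypr2* (interaction 10.17 ± 0.46, edgeR adjusted p = 6.6e-07). *sidJ*, for an esterase of siderophore metabolism, had 19.1 and 22.9 CPM in darkness and 5.25 and 2.65 in light in QM6a, and 0.272 and 0.263 in darkness and 13 and 16.5 in light in ∆*ypr2*. *sidF*, for an acetyltransferase of siderophore synthesis, had 22.5 and 26.2 CPM in darkness and 4.26 and 3.17 in light in QM6a, and 0.706 and 0.701 in darkness and 14.8 and 19 in light in ∆*ypr2*. In none of these 3 genes did the light and dark cultures of a strain overlap.

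Between the remaining members of the cluster the form of the reversal was alike, at lower levels. *sidD* (peptide synthetase) had light responses of -3.28 ± 0.28 in QM6a and 2.21 ± 0.31 in ∆*ypr2*, *sitT* (ABC transporter) -2.88 ± 0.36 and 3.75 ± 0.42, and *sidH* (enoyl-CoA hydratase) -3.19 ± 0.23 and 5.32 ± 0.33. The cluster is a list that the study had chosen on these samples, and its direction is not independent evidence. *sor4*, the transporter gene of the SOR cluster, had 1210 and 1020 CPM in darkness and 8.91 and 8.42 in light in QM6a, and 87.1 and 54 in darkness and 148 and 158 in light in ∆*ypr2* (interaction 8.13 ± 0.3, adjusted p = 2.1e-07). Its light response in ∆*ypr2*, 1.12 ± 0.18, was far smaller than that of the wildtype, -7.01 ± 0.24. TR_75247, for an ATPase of the AAA+ type, had 39.7 and 29.8 CPM in darkness and 0.219 and 0.288 in light in QM6a, and 2.45 and 1.66 in darkness and 4.85 and 4.51 in light in ∆*ypr2*. For these 8 genes, 6 of the siderophore cluster, *sor4* and TR_75247, and for no other of the 52, the deletion effect in light was called as well. Beside *sor4* the SOR cluster contributed *sor2* to the lost genes (1.47 ± 0.35), a call lost in 6 of the 8 fits leaving out a culture, and none of its other genes was called. This made 2 of 7 genes with *ypr2* included (28.6%), a list taken from the study, beside 14.3% of all tested genes. *sor5* was at 0 in light in both strains, at least 100-fold under the dark level in QM6a. TR_102499 of the same cluster was also at 0 in light in both strains. Without counts in light in either strain the interaction could not be measured, so a missing call says nothing on these genes. For *sor5* the deletion effect in darkness was called (-4.02 ± 0.69). In ∆*ypr2* it had 20 counts and 1 count in the dark cultures, and its light response was not called (adjusted p = 0.086).

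On the other side of the reversal the catalase gene *cat-1*, for an enzyme that degrades hydrogen peroxide, had 3.97 and 3.94 CPM in darkness and 21.2 and 25.8 in light in QM6a. In ∆*ypr2* it had 90.8 and 91 CPM in darkness and 24.4 and 21.5 in light. The light cultures of both strains overlapped, and the dark cultures lay on either side of them (interaction -4.56 ± 0.16, adjusted p = 1.7e-07). The same order was found for TR_62380, an MFS permease gene, with 8.8 and 13.8 CPM in darkness and 50.7 and 53.4 in light in QM6a and 212 and 237 in darkness and 38.5 and 41.3 in light in ∆*ypr2*. MFS permeases carry sugars and other small solutes. TR_46285, a small heat shock gene of the Hsp26/Hsp42 type, whose products keep damaged proteins from aggregating, had 13 and 31.2 CPM in darkness and 128 and 108 in light in QM6a, and 441 and 711 in darkness and 72.5 and 149 in light in ∆*ypr2* (-4.79 ± 0.58, adjusted p = 0.00015). TR_105533, for a small secreted cysteine-rich protein, had 61.2 and 93.7 CPM in darkness and 173 and 178 in light in QM6a and 1930 and 2510 in darkness and 197 and 307 in light in ∆*ypr2*. In these genes the rise of the dark level in ∆*ypr2* went beyond the light level of the wildtype.

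The zinc cluster regulator gene TR_106259 had 0.815 and 1.04 CPM in darkness and 2.02 and 2.37 in light in QM6a, and 39.9 and 46.8 in darkness and 2.62 and 4.15 in light in ∆*ypr2* (interaction -4.89 ± 0.38, adjusted p = 9.8e-06). TR_60352, annotated as a NADH dehydrogenase, had light responses of 2.96 ± 0.2 in QM6a and -2.27 ± 0.13 in ∆*ypr2*, and TR_103009, of unknown function, 1.68 ± 0.3 and -3.78 ± 0.19. Smaller reversals were those of *agl1*, for an alpha-galactosidase that removes galactose side chains (1.11 ± 0.17 and -1.26 ± 0.14), the chitinase gene *chi18-13* (1.1 ± 0.14 and -1.3 ± 0.12) and *ccg-14* (1.42 ± 0.39 and -2.23 ± 0.32). Their light responses were near the limit of a call in one strain or both. All 52 interactions were called in each of the 8 fits leaving out a culture, and 28 of the 52 genes (53.8%) stayed in the reversed class in all of them.

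**Figure D5:**
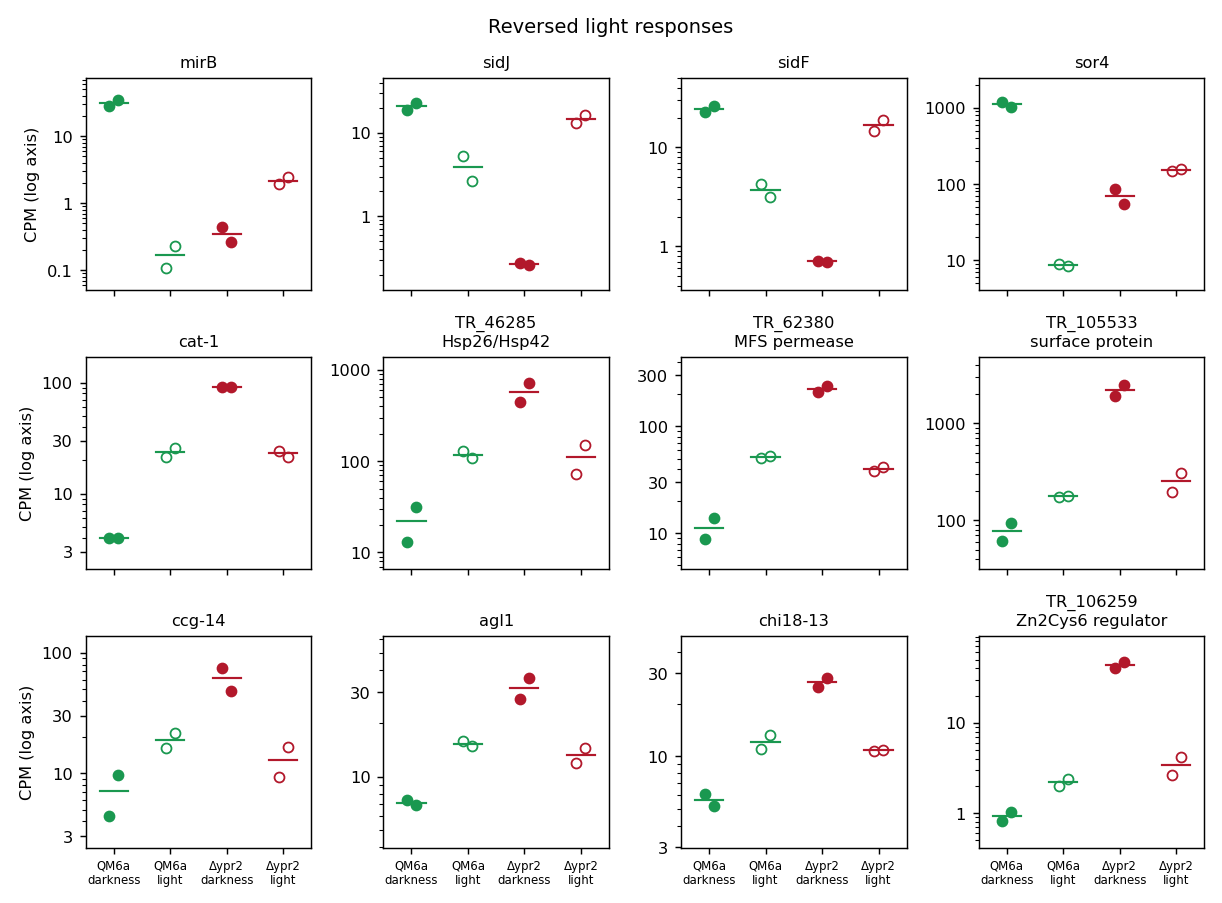
Transcript levels (CPM, log axis) of 12 reversed genes in the 8 libraries; filled points are darkness, open points light, green QM6a and red ∆*ypr2*, and lines mark the mean of both cultures. The upper row falls in light in QM6a and rises in ∆*ypr2* (*mirB* from 28.7 and 34.8 to 0.109 and 0.231 CPM, and from 0.435 and 0.263 to 1.95 and 2.42 CPM), and the middle and lower rows do the opposite.

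Strengthened responses were the smallest class, with 36 downward and 11 upward. Of the 36 downward genes 35 were upregulated in ∆*ypr2* in darkness. The QID74 homologue TR_74282, for a cysteine-rich cell wall protein, had 1250 and 1480 CPM in darkness and 142 and 154 in light in QM6a, and 34500 and 42800 CPM in darkness and 402 and 684 in light in ∆*ypr2* (interaction -2.94 ± 0.31, edgeR adjusted p = 6e-05). The groups did not overlap, and the dark level of ∆*ypr2* was the highest of all genes described here. The alcohol oxidase gene *aox1* had 230 and 257 CPM in darkness and 82.1 and 104 in light in QM6a, and 4690 and 5760 in darkness and 349 and 407 in light in ∆*ypr2* (-2.4 ± 0.19, adjusted p = 1.2e-05). The catalase gene *cat-7* had light responses of -3.62 ± 0.38 in QM6a and -6.9 ± 0.19 in ∆*ypr2*, so that with *cat-1* reversed and *cat-4* lost (1.77 ± 0.19 and 0.46 ± 0.16, a call lost in 2 of the 8 fits leaving out a culture) 3 of 4 listed catalase genes had a called interaction (14.3% of all tested genes), each in another class. The list is a part of the catalase genes, those that the study described in these libraries, and is no independent evidence. The remaining gene, *cat-3*, was at 0 in light in QM6a, and its interaction was not called. The aquaporin gene TR_82321, for a membrane channel, had 1.52 and 1.97 CPM in darkness and 0.219 and 0.231 in light in QM6a and 73.6 and 95.8 in darkness and 0.446 and 0.547 in light in ∆*ypr2*. For this gene, for *cat-7* and for the sulfite oxidase gene TR_76601 the call was lost in 2, 3 and 5 of the 8 fits leaving out a culture. Without QM6a light replicate 1 the class held 29 genes.

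Of the 11 upward strengthened genes 10 were downregulated in ∆*ypr2* in darkness. TR_38812, without a name, had 275 and 251 CPM in darkness and 691 and 510 in light in QM6a, and 40.1 and 39.6 in darkness and 502 and 563 in light in ∆*ypr2* (interaction 2.55 ± 0.18, adjusted p = 6.3e-06). The receptor gene TR_55561 of the PTH11 type had light responses of 1.42 ± 0.15 and 2.76 ± 0.17, with a call that was lost without ∆*ypr2* dark replicate 2. Of the unclassed genes TR_55272, of unknown function, was the most abundant of those named, with 4880 and 4860 CPM in darkness and 2710 and 2460 in light in QM6a and 1680 and 2030 in darkness and 2970 and 3370 in light in ∆*ypr2*. Its light responses of -0.91 ± 0.1 and 0.77 ± 0.1 were each under 2-fold with opposite signs, and their difference was 1.69 ± 0.15 (adjusted p = 1.9e-05).

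Several light responses did not differ between the strains beyond the limits of a call. The photoreceptor gene *env1* had 380 and 420 CPM in light and 8.69 and 5.38 in darkness in QM6a, and 351 and 316 in light and 8.48 and 10.5 in darkness in ∆*ypr2*, with an interaction of -0.69 ± 0.24 (edgeR adjusted p = 0.033). The photolyase gene *phr1*, for repair of DNA in light, had 94 and 93.2 CPM in light and 23.6 and 23.4 in darkness in QM6a, and 96.8 and 90.9 in light and 12.1 and 13.1 in darkness in ∆*ypr2*. Its interaction of 0.9 ± 0.09 passed the p limit (5.2e-05) and stayed under 2-fold. The photoreceptor genes *blr1* and *blr2* had interactions of 0.02 ± 0.08 (adjusted p = 0.85) and 0.3 ± 0.07 (0.0079). The paracelsin synthetase gene *tex2* had light responses of 2.2 ± 0.11 in QM6a and 2.06 ± 0.11 in ∆*ypr2* (interaction -0.14 ± 0.16). None of the 4 genes for light perception was called by edgeR or by DESeq2, with 3 at an unadjusted p under 0.05, beside a call by edgeR for 14.3% of all tested genes. For *env1* the interaction was -1.08 without QM6a dark replicate 1.

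The cellulase genes were lowered in light in both strains. Of 17 cellulase and glucosidase genes with a symbol 15 were lower in light in QM6a and 15 in ∆*ypr2*, beside 14.4% and 13.3% of all tested genes. A called interaction was found for 1 of the 17 (5.88%), beside 14.3% of all tested genes. The cellobiohydrolase gene *cbh2* had 4840 and 4800 CPM in darkness and 0.164 and 0.231 in light in QM6a, and 5210 and 2880 in darkness and 0.167 and 8.25 in light in ∆*ypr2*. The light cultures of ∆*ypr2* differed more from each other than from QM6a, and the interaction of 4.71 ± 1.68 was not called (adjusted p = 0.04). The interaction of *cbh2* was 5.6 without ∆*ypr2* light replicate 1 and 0.03 without ∆*ypr2* light replicate 2. More of the 17 genes were called in some fits leaving out a culture of ∆*ypr2*. The share of 5.88% therefore depends on single cultures. The xylanase gene *xyn2* was reduced, with 678 and 623 CPM in darkness and 3.12 and 2.08 in light in QM6a and 1180 and 1050 in darkness and 12.5 and 12.3 in light in ∆*ypr2* (interaction 1.47 ± 0.19, adjusted p = 0.00021). The membrane bound endoglucanase gene *cel5b* was gained downward, with 327 and 220 CPM in ∆*ypr2* in darkness and between 68.6 and 90.1 CPM in the other 6 libraries.

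Of the 7 conidiation markers 1 had a higher and 5 a lower interaction, beside 5.94% and 8.37% of all tested genes, with a median of -3.65 beside -0.03. *con-10*, a conidiation-specific gene in *Neurospora*, had 9.35 and 11.9 CPM in light and 0.435 and 0.29 in darkness in QM6a, and 9.64 and 6.98 in light and 4.4 and 3.9 in darkness in ∆*ypr2* (interaction -3.84 ± 0.41, adjusted p = 6.8e-05). *dtr1*, the homologue of a transporter gene for spore wall material, was lost (-1.86 ± 0.17), *ccg-13* was gained downward (a call lost in 2 of the 8 fits leaving out a culture) and *ccg-14* reversed. *medA*, a regulator of conidiophore development in *Aspergillus*, moved the other way, with 1070 and 1100 CPM in darkness and 232 and 223 in light in QM6a and 511 and 542 in darkness and 293 and 325 in light in ∆*ypr2* (1.48 ± 0.1, adjusted p = 3.5e-06). Of the 7 heat shock genes 6 had a lower interaction (8.37% of all tested genes), with a median of -2.16. With glmTreat 3 of them were called, beside 553 of all 8469 tested genes. The Hsp30 gene TR_62100 had 391 and 465 CPM in light and 72 and 124 in darkness in QM6a, and 430 and 706 in light and 968 and 1210 in darkness in ∆*ypr2*. Members of both lists had been called by the study in these same libraries and are no independent evidence of a direction.

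Of 66 tested genes for transcription factors that the study had called in these libraries, 7 had a higher and 43 a lower interaction (median -1.46), among them 27 lost, 4 reduced, 11 gained and 2 reversed responses. Since the list was chosen by changes in the same samples, its count cannot be read against the 14.3% of all genes. The most abundant of these factors, the C2H2 regulator gene TR_108357, had 970 and 991 CPM in darkness and 309 and 284 in light in QM6a and between 280 and 397 CPM in all libraries of ∆*ypr2* (interaction 2.13 ± 0.1, adjusted p = 8.9e-07). With glmTreat the count of the list was 20 genes, and that of all tested genes was 553. The bZIP regulator gene TR_109538 was reversed, with 5.69 and 7.21 CPM in light and 1.36 and 1.51 in darkness in QM6a and 6.13 and 7.48 in light and 22.7 and 18.4 in darkness in ∆*ypr2*. Both genes were chosen after their values were seen.

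Neighbouring genes shared a direction of the interaction in places. Along the 9115 genes with a place in the RefSeq table, 12 runs of at least 3 adjacent genes had a higher interaction in every member and held 48 genes, and 20 runs with a lower interaction held 67. The longest runs had 8 genes. One joined the 6 siderophore genes, all reversed, with the lost gene TR_82626 (1.02) and the reduced gene TR_70994 (3.75) beside *sidD*. In the other all 8 genes, none with a name, were lost or reduced, with interactions from 1.01 (TR_56717) to 2.78 (TR_56682). A run with a lower interaction held 5 genes around the phosphoketolase gene TR_61553, with a gluconate kinase gene (TR_62091, -2.45) that was gained downward. Another joined the QID74 homologue with a phospholipase gene (TR_44366, -1.53) and an orphan gene (TR_103153, -2.26). The number of runs was not compared with chance.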

How the data were processed

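The authors aligned single reads with Bowtie2, used SAMtools and bedtools, and estimated a value for each transcript with RSEM, under transcript IDs of the JGI annotation. Tool versions were not given in the sources used here. Deposited values are named FPKM but are expected counts, as read from their unequal totals and mostly whole values. After rounding, edgeR 4.0.16 (R 4.3.3) was used for two-sided quasi-likelihood F tests (TMM scaling, prior count 0.125, all 8 libraries in 1 fit, 4 residual degrees of freedom) on genes that reached 0.5 CPM in 2 or more libraries (674 of 9143 did not). A call required a change of 2-fold or more and p under 0.01 after Benjamini-Hochberg adjustment over the 8469 tested genes. Standard errors are the log2 change divided by the root of F, and none is given with a group at 0, where folds take 3 counts in the whole group as the floor and cover counting error alone. An exact permutation test of 2 against 2 cultures cannot go below p = 0.333 and was not used.

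Named were *ypr2*, members of the lists, and for each class and direction, among genes reaching a group mean of 10 CPM, the 5 largest interactions and the 5 largest of annotated genes; neighbours in runs are further exceptions. The list rules by symbol were added after the reference was seen. Members, lists and tests were chosen with earlier results of these data known. Of the IDs, 235 had a RefSeq symbol, and 902 were named or annotated there or in the study, whose annotation covers mainly genes it had called. Alternatives were other scalings, filters, limits, DESeq2 1.42.0, limma 3.58.1, a replicate block and leaving out each library. The scripts were tested on simulated data, where 34% of 2-fold, 82% of 3-fold and 96% of 4-fold interactions were called. A gene without a call may therefore still differ between the strains.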

Additional observations from a re-analysis of the deposited data

Results flagged for a closer look

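The light response differed between QM6a and ∆*ypr2* by the interaction test of edgeR for 1212 genes, of which 741 were weakened, 203 gained, 52 reversed and 47 strengthened. Among the named reversed genes the interaction (log2, ∆*ypr2* minus QM6a) was 10.17 for *mirB* (TR_71008), 8.51 for *sidH* (TR_6085), 8.16 for *sidJ* (TR_112590), 7.28 for *sidF* (TR_82628), 6.63 for *sitT* (TR_71010) and 5.49 for *sidD* (TR_71005). It was 8.13 for *sor4* (TR_43701) and 8.27 for the ATPase gene TR_75247. In the other direction it was -5.46 for TR_103009, -5.23 for TR_60352, -4.89 for the regulator gene TR_106259 and -4.79 for the small heat shock gene TR_46285. It was -4.7 for the permease gene TR_62380, -4.56 for *cat-1* (TR_67538), -4.32 for TR_105533 and -3.65 for *ccg-14* (TR_82662). The smallest were -2.4 for *chi18-13* (TR_119859) and -2.37 for *agl1* (TR_72632). With 2 cultures per group no single culture could be tested for standing apart.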

How the results depend on the processing

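With glmTreat, which tests against a change of 2-fold, 553 interactions were called (228 higher, 325 lower), with 339 weakened (257 lost, 82 reduced), 100 gained, 16 reversed, 11 strengthened and 87 unclassed genes, 744 and 10 genes for the deletion in darkness and in light, and 8 runs. At an adjusted p under 0.05 there were 71 strengthened genes, 75 genes for the deletion in light and 50 runs, and at an unadjusted p under 0.01 100 genes for the deletion in light. When each culture was left out in turn, 1046 to 1306 interactions were called (437 to 579 higher, 609 to 727 lower), with 645 to 796 weakened, 170 to 209 gained, 42 to 64 reversed and 29 to 55 strengthened genes, 11 to 60 genes for the deletion in light and 23 to 46 runs. The count for the deletion in light was 20 and 11 without QM6a light replicate 1 and 2, and 14 without ∆*ypr2* light replicate 2. Of the 1212 calls 911 (75.2%) were kept in all 8 of these fits. The interaction of *cat-3* (TR_58472), at 0 counts in light in QM6a, was -2.63 after quantile normalization against a fitted 0.27, and neither is a bound. Of the 1212 calls, 0 became a call in the opposite direction under any alternative. Among named genes without a call, those of *egl2*, *egl3* and *cip1* turned to -0.28, -0.83 and -1.55 without ∆*ypr2* light replicate 2, and a few interactions near 0, such as that of *tex2*, also turned. Replicate numbers did not pair the cultures (correlations of deviations from -0.084 to 0.054), and with the replicate block 1202 interactions were called. Genes at a few counts in light limit the size of their interaction. The cause of these changes was not tested.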
